A study of Mus musculus with 40 samples.

Results

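This report describes 10 genes that sense microbial products, the mouse Toll-like receptor genes Tlr1, Tlr2, Tlr3, Tlr4, Tlr5, Tlr6, Tlr7, Tlr9 and Tlr13 and the co-receptor gene Cd14. They were chosen by name from the 45706 genes of the table, and all 10 were present in it. RNA was sequenced from cells sorted out of colon tumors, blood and healthy colon of mice, in 10 groups of 4 libraries each. The tumor-bearing mice were Cdx2CreERT2 - Apc fl/fl animals on a mixed C57Bl6/Sv129 background, in which the Cdx2 promoter directs a tamoxifen-dependent Cre recombinase to the colon and deletes Apc. They received 1 intraperitoneal dose of 25 mg/kg tamoxifen at 8 to 10 weeks of age, per the labels. The strain label starts at C57Bl6/Sv129 and its number rises by 1 per library, and all these mice were taken as C57Bl6/Sv129. Neutrophils, monocytes, epithelial cells and stromal cells came from their tumors, and neutrophils and monocytes from their blood. The healthy mice were C57Bl6 without transgene or agent, and gave blood neutrophils, blood monocytes, colon epithelial cells and colon stromal cells. Strain, transgene and tamoxifen therefore cannot be told apart from the tumor in any comparison with healthy mice. The titles of 4 blood libraries name 2 animals each, 3 of them healthy blood monocyte libraries.

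Toll-like receptors bind conserved microbial molecules and start inflammatory signaling. At the cell surface, Tlr4 with Cd14 and Ly96 recognizes lipopolysaccharide, Tlr2 pairs with Tlr1 or Tlr6 to recognize bacterial lipoproteins, and Tlr5 recognizes flagellin. In endosomes, Tlr3 recognizes double-stranded RNA, Tlr7 single-stranded RNA, Tlr9 unmethylated CpG DNA and Tlr13 a bacterial ribosomal RNA sequence. In the colon these receptors meet products of the microbiota, and myeloid cells carry most of them.

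The genes lie on several chromosomes, and Tlr1 (chr5:64924679-64933563) and Tlr6 (chr5:64952031-64960097) are neighbors on the minus strand of GRCm38. Tlr1 and Tlr6 share 259 windows of 100 bases in their exons, 7.89% of the Tlr1 windows and 7.09% of the Tlr6 windows, and no other pair among the 10 shares any. How reads mapping to both were counted is not given in the sources used here, so small differences between Tlr1 and Tlr6 are uncertain. An exon of Tlr3 overlaps the gene Gm45542 on the opposite strand over 381 bases, so Tlr3 counts may hold reads of Gm45542.

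Promoter sequences of RefSeq (GRCm38.p6; 250 bases before the start and 50 from it on) were matched by symbol for 7 of the 10 genes. The 5 printed here belong to the genes whose patterns differed most in kind, namely Tlr2 and Tlr5, which changed from blood to tumor in monocytes, Tlr9 and Tlr3, for which the test of a difference between neutrophils and monocytes gave a call that few other settings kept for Tlr3, and Tlr13, which was abundant in all 6 myeloid groups. Each reads 5′ to 3′ along the gene's own strand and covers a RefSeq start, at chr3:83841559-83841858 (minus) for Tlr2, chr1:182954538-182954837 (plus) for Tlr5, chr9:106222348-106222647 (plus) for Tlr9, chr8:45410331-45410630 (minus) for Tlr3 and chrX:106143025-106143324 (plus) for Tlr13. Capitals mark matches to the motifs searched on both strands.
Tlr2: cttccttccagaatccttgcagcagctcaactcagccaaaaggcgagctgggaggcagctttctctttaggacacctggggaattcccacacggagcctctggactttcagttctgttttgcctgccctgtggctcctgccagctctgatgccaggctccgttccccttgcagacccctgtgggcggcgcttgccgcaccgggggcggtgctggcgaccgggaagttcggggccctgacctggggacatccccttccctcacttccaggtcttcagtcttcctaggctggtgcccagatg
Tlr5: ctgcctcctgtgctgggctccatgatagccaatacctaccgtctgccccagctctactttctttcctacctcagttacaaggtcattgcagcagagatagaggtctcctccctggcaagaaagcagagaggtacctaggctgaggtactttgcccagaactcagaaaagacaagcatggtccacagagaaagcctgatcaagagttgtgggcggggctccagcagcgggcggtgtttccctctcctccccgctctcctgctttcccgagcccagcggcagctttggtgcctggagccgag
Tlr9: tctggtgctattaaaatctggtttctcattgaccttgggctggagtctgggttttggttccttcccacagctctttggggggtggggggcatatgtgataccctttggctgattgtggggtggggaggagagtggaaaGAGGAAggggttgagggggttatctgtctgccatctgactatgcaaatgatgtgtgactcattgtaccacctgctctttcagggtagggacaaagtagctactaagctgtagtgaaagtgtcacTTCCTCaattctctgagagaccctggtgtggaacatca
Tlr3: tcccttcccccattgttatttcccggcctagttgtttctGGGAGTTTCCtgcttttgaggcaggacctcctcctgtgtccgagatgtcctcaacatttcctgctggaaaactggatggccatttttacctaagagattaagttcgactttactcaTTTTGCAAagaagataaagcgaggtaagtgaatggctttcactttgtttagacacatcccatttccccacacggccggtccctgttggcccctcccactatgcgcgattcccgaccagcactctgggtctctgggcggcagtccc
Tlr13: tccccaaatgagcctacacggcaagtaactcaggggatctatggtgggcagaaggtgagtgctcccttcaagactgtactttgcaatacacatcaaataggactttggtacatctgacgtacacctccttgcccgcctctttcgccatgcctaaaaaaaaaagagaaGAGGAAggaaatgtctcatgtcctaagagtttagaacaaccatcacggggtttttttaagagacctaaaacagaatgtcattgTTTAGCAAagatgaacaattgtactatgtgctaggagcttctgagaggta

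The letters searched were GAGGAA for the PU.1 core, TTGCNNAA for C/EBP, GGG and TTTCC with 2 bases between them for NF-kB, GAAA repeated after 2 bases for IRF and TATAAA for the TATA box, where N is any base. No matches in the printed windows overlapped. PU.1 and C/EBP are transcription factors of myeloid cells, and NF-kB and IRF factors act downstream of Toll-like receptors. The Tlr9 promoter held 2 PU.1 cores, 112 bases before and 12 bases after the start, and the Tlr13 promoter held 1, 83 bases before the start, together with a C/EBP match at the start itself. The Tlr3 promoter held an NF-kB match 211 bases and a C/EBP match 95 bases before its start. No letters of these motifs were found in the printed windows of Tlr2 and Tlr5. Of all 32851 promoters, 28.3% held the PU.1 core, 10.8% the C/EBP, 1.63% the NF-kB, 3.44% the IRF and 13.6% the TATA letters. The RefSeq start of Tlr3 lies 700 bases from the start in the gene annotation used here, that of Tlr2 159 bases and that of Tlr13 71 bases, all inside the annotated gene, and the whole Tlr3 window lies within it, whereas those of Tlr5 and Tlr9 coincide.

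Levels are given as the RPKM values deposited by the authors, which allow genes to be compared per length, as mean ± SD over 4 libraries. Differences are log2 fold changes of edgeR's quasi-likelihood test on the counts with their standard error (SE), and a gene was called when the Benjamini-Hochberg adjusted p was under 0.05 and the fold change beyond 1.5 on the log2 scale. The libraries held 10717873 to 38002939 counts on genes, of which mitochondrial genes took 5.34% to 83.9%. Most groups carried the markers of their labels, but several libraries also carried those of other cells. Tumor neutrophil replicate 1 held epithelial markers at 76.8% of what tumor epithelial cells held, and the other 3 held them at 4.76% to 17.5%. Tumor stromal replicates 1 and 2 held epithelial markers at 93.9% and 51.9%, whereas replicates 3 and 4 held leukocyte markers (Ptprc and 2 others) at 27.7% and 28.3% of their level in tumor monocytes. Fibroblast markers summed to 5.97 to 24.0 RPKM in tumor stromal cells and to 355 to 2010 RPKM in healthy stromal cells, whereas endothelial markers, of cells which the sort also admits, summed to 130 and 133 RPKM in tumor replicates 3 and 4 and to 19.98 to 152 RPKM in healthy stromal cells. In such sorted samples, fewer cells of a type and less RNA per cell cannot be told apart.

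**Figure D1:**
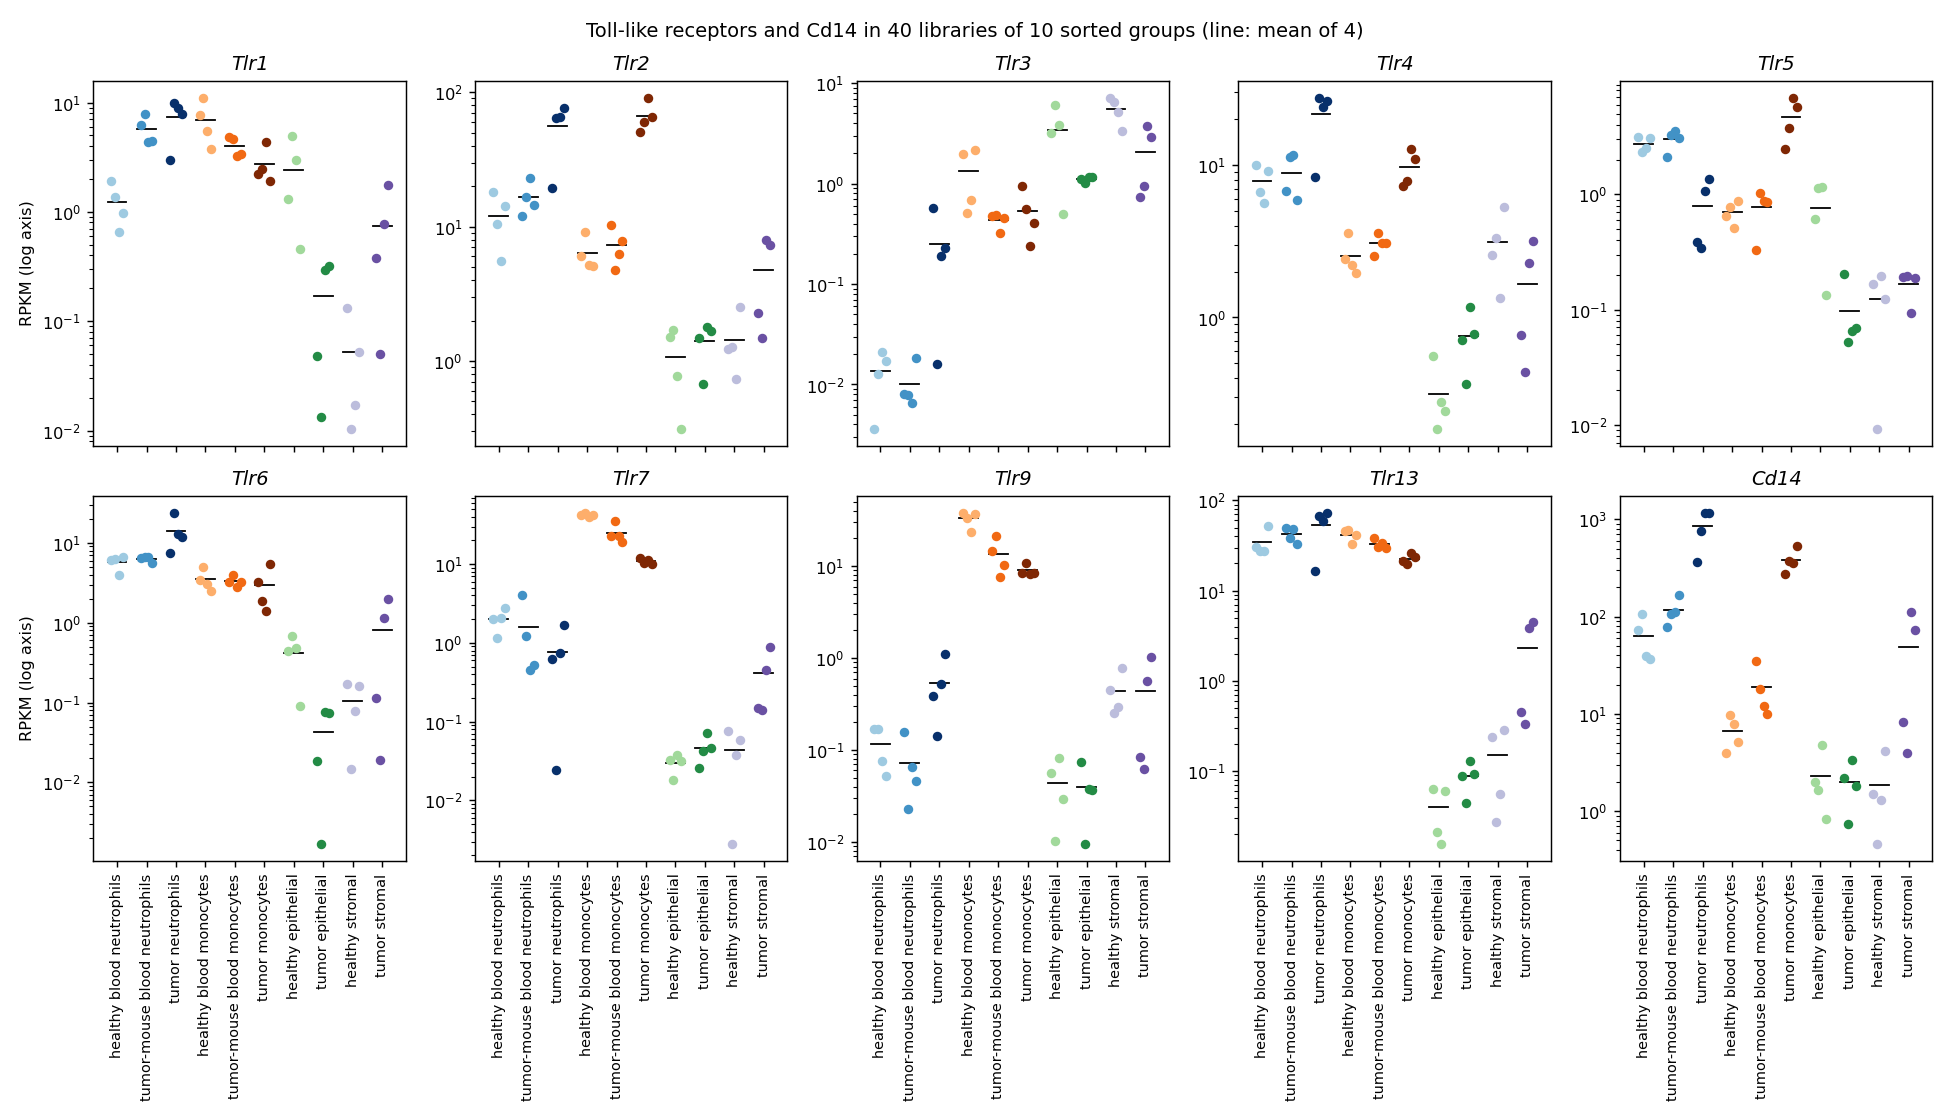
RPKM (log axis) of the 10 genes in each of the 40 libraries, 1 panel per gene, with points for libraries and a line for the mean of 4. Cd14 reaches 1166 RPKM in tumor neutrophils, and Tlr7 and Tlr9 are highest in the 3 monocyte groups. The mean of Tlr3 is highest in healthy colon stromal and epithelial cells.

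The 10 genes fell into distinct patterns over the 10 groups. The highest mean level was in tumor neutrophils for Tlr1, Tlr4, Tlr6, Tlr13 and Cd14, in tumor monocytes for Tlr2 and Tlr5, in healthy blood monocytes for Tlr7 and Tlr9, and in healthy stromal cells for Tlr3. With levels rescaled by TMM factors, the top group was the same for 8 of the 10 genes, and it became tumor neutrophils for Tlr2 and healthy epithelial cells for Tlr3. Most neighbors in the order of means overlapped in range. Among the separations at the top of the order, Tlr7 in healthy blood monocytes lay above blood monocytes of tumor-bearing mice and those above tumor monocytes, and Tlr9 in healthy blood monocytes lay above all other groups. Tumor neutrophils lay above all other groups for Tlr6, and tumor neutrophils and tumor monocytes lay above all blood and colon groups for Cd14. Further down, among others, Tlr4 and Tlr5 in healthy blood neutrophils, Tlr9 and Tlr13 in tumor monocytes and Tlr3 in tumor epithelial cells lay above the next lower group.

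Cd14 was the most abundant of the 10 genes in tumor myeloid cells. It measured 363, 749, 1166 and 1147 RPKM in the tumor neutrophil replicates 1 to 4, and 78.4, 106, 112 and 166 RPKM in blood neutrophils of the same kind of mice. The ranges did not overlap. In tumor monocytes it measured 276, 370, 352 and 525 RPKM, against 35.0, 18.1, 12.0 and 9.86 RPKM in blood monocytes, again without overlap. Cd14 thus rose by 2.97 on the log2 scale in tumor over blood neutrophils (SE 0.53, edgeR adjusted p = 0.00371) and by 4.62 in tumor over blood monocytes (SE 0.40, edgeR adjusted p = 4.36e-05). The 2 changes differed by -1.75 (SE 0.62), which did not pass the interaction test (edgeR adjusted p = 0.113).

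Tlr4, the signaling receptor for lipopolysaccharide, measured 7.26, 7.85, 12.7 and 10.9 RPKM in tumor monocytes and 2.54, 3.57, 3.08 and 3.10 RPKM in blood monocytes of tumor-bearing mice. All 4 tumor libraries lay above all 4 blood libraries, and the log2 fold change was 1.92 (SE 0.26, edgeR adjusted p = 8.32e-04). In neutrophils, tumor replicate 1 measured 8.39 RPKM and the other 3 measured 27.7, 24.2 and 26.4 RPKM, against 6.78, 11.2, 11.6 and 5.88 RPKM in blood. Replicate 1, the library with the most epithelial markers, was the only one within the blood range. The difference of 1.46 (SE 0.51) passed neither threshold (edgeR adjusted p = 0.0748), and without replicate 1 it was 1.78 and called (edgeR adjusted p = 0.00928).

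Tlr2, the lipoprotein receptor, also rose in both cell types. Tumor monocytes measured 50.5, 60.4, 91.2 and 65.6 RPKM and blood monocytes of tumor-bearing mice 10.3, 4.75, 6.24 and 7.87 RPKM, a log2 fold change of 3.48 (SE 0.30, edgeR adjusted p = 4.36e-05). Tumor neutrophils measured 19.4, 64.5, 64.9 and 76.5 RPKM and their blood counterparts 11.9, 16.6, 23.1 and 14.4 RPKM, so that replicate 1 fell inside the blood range. The log2 fold change in neutrophils was 1.91 (SE 0.52, edgeR adjusted p = 0.0297). The call in neutrophils was lost in 8 of 15 other settings and kept without tumor replicate 1, where the change was 2.24.

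The co-receptor genes of Tlr2 gave no call between tumor and blood with all libraries. Tlr6 in tumor neutrophils measured 7.50, 23.8, 12.7 and 12.0 RPKM, all above the 5.52 to 6.64 RPKM of blood neutrophils of tumor-bearing mice. Its log2 fold change of 1.40 (SE 0.50) was not called (edgeR adjusted p = 0.0788), but without replicate 1 it was 1.69 and passed (edgeR adjusted p = 0.0249). In monocytes, Tlr6 differed by 0.08 and Tlr1 by -0.28 between tumor and blood, with edgeR adjusted p = 0.916 and 0.623. Tlr1 differed by 0.57 in neutrophils (edgeR adjusted p = 0.451).

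Tlr5, the flagellin receptor, moved in opposite directions. Tumor monocytes measured 2.48, 3.75, 6.93 and 5.70 RPKM and blood monocytes 0.327, 1.03, 0.879 and 0.866 RPKM, a rise of 2.85 on the log2 scale (SE 0.46, edgeR adjusted p = 0.00199). Tumor neutrophils measured 0.386, 0.343, 1.07 and 1.37 RPKM and blood neutrophils 2.10, 3.31, 3.52 and 3.12 RPKM, a log2 fold change of -1.94 (SE 0.49, edgeR adjusted p = 0.0206). Neither pair of groups overlapped. The interaction, which tests whether the change from blood to tumor differs between the cell types, was -4.89 (SE 0.71, edgeR adjusted p = 0.00182) and was called in all 23 other settings. In neutrophils, leaving out blood replicate 2 or 3 gave edgeR adjusted p = 0.0508 and 0.0578.

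Of the endosomal receptors, Tlr7 and Tlr13 were not called between tumor and blood. Tlr7 measured 11.9, 10.4, 11.4 and 9.94 RPKM in tumor monocytes and 22.5, 35.3, 22.9 and 19.0 RPKM in blood monocytes of tumor-bearing mice, without overlap. The log2 fold change of -0.93 (SE 0.24) had an edgeR adjusted p of 0.0212 but did not reach the fold threshold. Tlr13 measured 16.5, 67.0, 58.6 and 73.0 RPKM in tumor neutrophils and 49.1, 38.2, 48.1 and 32.6 RPKM in their blood counterparts, and the difference of 0.53 was not called (edgeR adjusted p = 0.526). In tumor monocytes Tlr13 measured 19.6 to 26.3 RPKM against 29.6 to 38.3 RPKM in blood, a log2 fold change of -0.27 that was not called either (edgeR adjusted p = 0.369).

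Tlr9 was low in all neutrophils and higher in those of the tumor. Tumor neutrophils measured 0.383, 0.143, 0.520 and 1.11 RPKM, from 29.8 to 243 counts, and blood neutrophils 0.157, 0.0229, 0.0657 and 0.0459 RPKM. Tumor replicate 2 lay just below the highest blood library. The log2 fold change was 2.83 (SE 0.82, edgeR adjusted p = 0.0376), and the call was lost in 7 of 15 other settings. Monocytes hold far more Tlr9, at 8.31 to 10.9 RPKM in the tumor. The 6 monocyte markers summed to 5.83 to 19.2 RPKM in tumor neutrophils and 12.0 to 20.7 RPKM in blood neutrophils, with none at 0 in every library, against 217 to 299 RPKM in tumor monocytes. Of these markers, 3 in tumor and 4 in blood neutrophils stayed below 1 RPKM in every library. The 6 markers of plasmacytoid dendritic cells, which carry Tlr9, summed to 1.46 to 5.35 RPKM in tumor and 1.36 to 1.77 RPKM in blood neutrophils, with Cox6a2 at 0 in both and Klk1 at 0 in blood. Below 1 RPKM in every library were 4 of these 6 in tumor and 5 in blood neutrophils. Neutrophils had been sorted as CD11b+, MHCII-, Ly6G+ and Ly6C-low. The sorted tumor libraries nevertheless held epithelial markers at 4.76% to 76.8% of their level in tumor epithelial cells. The part of monocytes, plasmacytoid dendritic cells or other cells in the Tlr9 difference was not tested.

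Tlr3 was near the limit of counting in blood neutrophils, with 1.48 to 5.16 counts in each library of tumor-bearing mice. It did not pass the filter on low counts between tumor and blood neutrophils. Without that filter it was called as higher in tumor neutrophils, at 4.32 (edgeR adjusted p = 0.0237). The fit of all 40 libraries and some fits without 1 library also called it. All these values rest on the same few counts in blood. Tumor neutrophils measured 0.576, 0.0161, 0.191 and 0.229 RPKM, the highest in replicate 1, which held the most epithelial markers, whereas tumor epithelial cells held 1.01 to 1.18 RPKM. In monocytes it was 0.240 to 0.943 RPKM in the tumor and 0.324 to 0.489 RPKM in blood, a difference of 0.55 (edgeR adjusted p = 0.478). The interaction of source and cell type was 3.77 for Tlr3 (SE 1.04, edgeR adjusted p = 0.0495) and 3.03 for Tlr9 (SE 0.76, edgeR adjusted p = 0.0325). Without tumor neutrophil replicate 1 the value for Tlr3 was 3.20 and not called (edgeR adjusted p = 0.0886), and that for Tlr9 was 3.24 and called. Over all 23 other settings the Tlr3 call was lost in 18 and the Tlr9 call in 12, with limma-voom and the replicate block keeping neither.

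In counts, 3 of the 9 tested members rose in tumor neutrophils, against 11.9% of all genes tested, and 1 fell, against 4.41%. In tumor monocytes 4 of 10 rose, against 7.76% of all genes, and none fell, against 3.89%. The interaction was called for 3 of 10 members, against 3.95% of all genes. Among the 3 was Tlr3, which did not pass the filter on low counts in the neutrophil libraries alone, so this count adds little. The 2 cell type comparisons and their interaction share libraries. The median log2 fold change was 1.40 for the members and 0.11 for all genes in neutrophils, and 0.31 against -0.03 in monocytes.

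**Figure D2:**
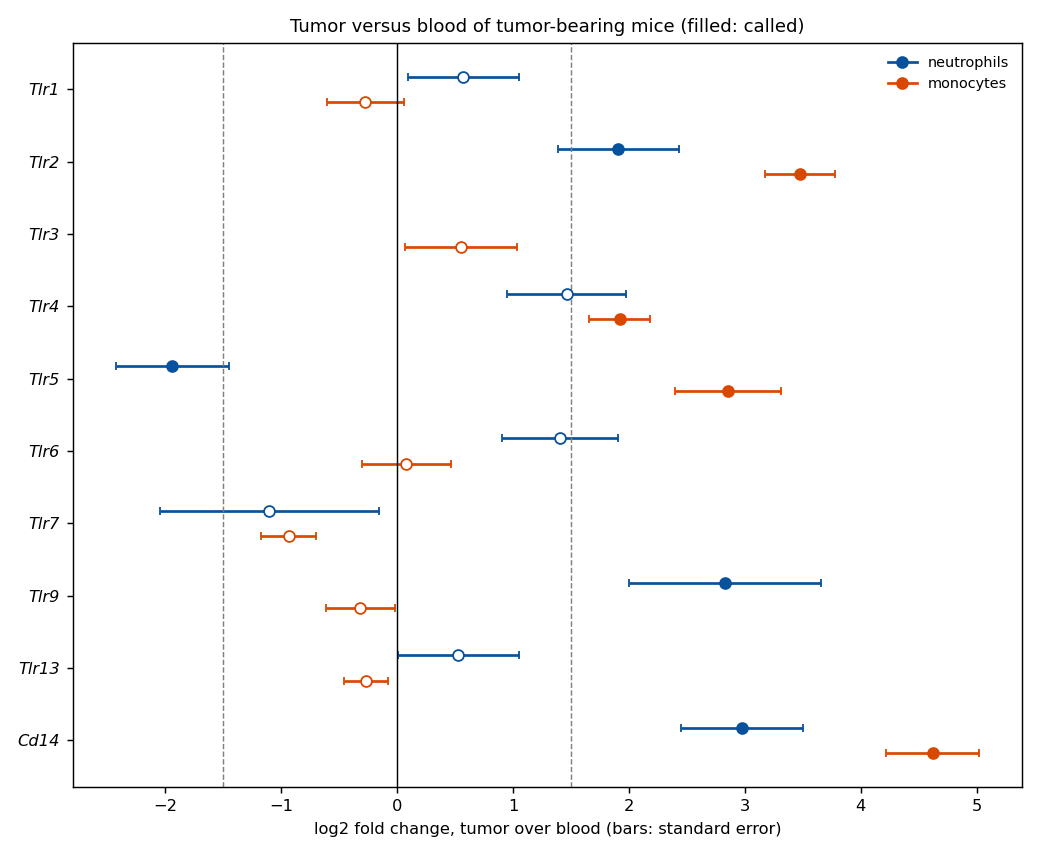
Log2 fold change of each gene in tumor over blood of tumor-bearing mice (x axis, bars show the standard error), in neutrophils (blue) and monocytes (orange), with filled points for called genes and dashed lines at 1.5 and -1.5. Tlr5 lies at -1.94 in neutrophils and 2.85 in monocytes, and Cd14 and Tlr2 lie to the right of the threshold in both. Tlr3 has no neutrophil point because it did not pass the filter on low counts there.

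The next comparison asked how blood cells of tumor-bearing mice differ from those of healthy mice. In blood neutrophils 1 of the 9 tested members was called, against 1.79% of all genes called as higher and 2.22% as lower. This was Tlr1, at 6.28, 7.78, 4.36 and 4.49 RPKM in tumor-bearing mice and 1.93, 1.38, 0.659 and 0.969 RPKM in healthy mice, a log2 fold change of 2.26 (SE 0.30, edgeR adjusted p = 0.0038). The groups did not overlap. The call held without each library in turn and was lost in a fit of all 40 libraries. The neighboring Tlr6, with which Tlr1 shares some exon sequence, differed by 0.18 (edgeR adjusted p = 0.635). Neutrophil markers summed to 15242 to 19946 RPKM in tumor-bearing and 3687 to 8468 RPKM in healthy mice, and their part in the Tlr1 difference was not tested. Cd14 differed by 0.97 (SE 0.32, edgeR adjusted p = 0.102) and the remaining 7 members by -0.61 to 0.51.

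In blood monocytes no member was called by edgeR, where 0.209% of all genes were (32 genes, and 4 to 44 without 1 library), although 4 members had an unadjusted p under 0.05. Tlr9 measured 14.8, 21.2, 7.57 and 10.2 RPKM in tumor-bearing mice and 38.1, 33.8, 23.7 and 37.3 RPKM in healthy mice, and Tlr7 22.5, 35.3, 22.9 and 19.0 RPKM against 42.4, 44.9, 39.3 and 42.2 RPKM. Both pairs of groups were without overlap, all healthy libraries being higher. The 6 plasmacytoid dendritic cell markers summed to 1.80 to 12.7 RPKM in tumor-bearing and 9.63 to 23.1 RPKM in healthy mice. Of the 6, 5 stayed below 1 RPKM in every library of both groups, so the sums rest largely on 1 gene. Cox6a2 was at 0 in all libraries of tumor-bearing mice. The part of these cells in the differences of Tlr7 and Tlr9 was not tested. The log2 fold changes were -1.21 for Tlr9 (SE 0.31, edgeR adjusted p = 0.179) and -0.66 for Tlr7 (SE 0.22, edgeR adjusted p = 0.327). Cd14 differed by 1.54 (SE 0.42, edgeR adjusted p = 0.205) and Tlr3 by -1.51 (SE 0.49, edgeR adjusted p = 0.314). DESeq2 called only Cd14 (adjusted p = 0.0187), limma-voom called 0 and the fit with the replicate number as a block called 0.

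Neutrophils and monocytes were then set against each other within each source. In healthy blood 4 members were higher in neutrophils, against 16.7% of all genes, and 4 were higher in monocytes, against 20.4%. In blood of tumor-bearing mice the counts were 5, against 15.1%, and 3, against 23%. In tumors they were 2, against 4.65%, and 2, against 2.8%. Titles name the same 3 animals for 3 of the 4 tumor neutrophil and 3 of the 4 tumor monocyte libraries. With the animal as a block, 5 members were called as higher in tumor neutrophils, Tlr1 at 2.39, Tlr4 at 2.03, Tlr6 at 3.38, Tlr13 at 2.22 and Cd14 at 1.99, and 1 as higher in tumor monocytes, Tlr9 at -3.67.

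Among the surface receptors, Cd14 was higher in neutrophils by 3.96 in healthy blood (edgeR adjusted p = 4.93e-05), by 3.40 in blood of tumor-bearing mice (edgeR adjusted p = 8.06e-05) and by 1.77 in tumors, where it was not called (edgeR adjusted p = 0.0508). Tlr4 was higher by 2.41 and 2.24 in the blood sources, with edgeR adjusted p = 8.9e-05 and 8.35e-05. Tlr5 measured 3.14, 2.31, 2.55 and 3.06 RPKM in healthy blood neutrophils and 0.648, 0.780, 0.516 and 0.875 RPKM in healthy blood monocytes. In tumors its difference was -2.07 (SE 0.57), with the monocytes higher, and just missed the threshold (edgeR adjusted p = 0.0501). Without tumor neutrophil replicate 1 it was -1.89 and called, as were Cd14 at 1.99, Tlr4 at 2.05 and Tlr13 at 2.16. Tlr2 was higher in blood neutrophils by 1.69 and 1.93 and differed by 0.38 in tumors (edgeR adjusted p = 0.697).

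The lipoprotein co-receptors were on the neutrophil side in tumors, with Tlr6 higher by 2.97 (SE 0.63, edgeR adjusted p = 0.0166) and Tlr1 by 2.07 (SE 0.56, edgeR adjusted p = 0.0478). The Tlr1 call was lost in 11 of 16 other settings and the Tlr6 call in 4. Tlr6 was on the neutrophil side in blood as well. Its log2 fold change was 1.49 in healthy mice (edgeR adjusted p = 9.51e-04), just below the fold threshold. In blood of tumor-bearing mice Tlr6 was higher in neutrophils by 1.65 and called (edgeR adjusted p = 8.51e-05). In healthy blood, Tlr1 was instead higher in monocytes, at 7.66, 11.1, 5.44 and 3.73 RPKM, than in neutrophils, a log2 fold change of -1.75 (SE 0.38, edgeR adjusted p = 0.00401). In blood of tumor-bearing mice it was 1.22 (SE 0.23, edgeR adjusted p = 0.00151), below the fold threshold. Whether these 2 values differ was not tested.

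The nucleic acid receptors Tlr7 and Tlr9 were higher in monocytes in every source. Tlr9 was lower in neutrophils by 7.41 in healthy blood (log2 fold change -7.41, SE 0.40, edgeR adjusted p = 2.54e-06), with -6.77 in blood of tumor-bearing mice and -3.60 in tumors (edgeR adjusted p = 0.00439). Tlr7 was at -3.58, -3.31 and -3.44 in the same order, called each time, although the tumor call was lost in 6 of 16 other settings, among them the animal block (edgeR adjusted p = 0.0937). Tlr3 was at -5.75 in healthy blood and -4.72 in blood of tumor-bearing mice, values that rest on neutrophil libraries with 0.819 to 8.02 counts. Tlr13 was the one endosomal receptor with no call in any of the 3 sources with all libraries, at 0.51, 1.08 and 1.90, and its mean lay between 22.7 and 53.8 RPKM in all 6 myeloid groups.

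**Figure D3:**
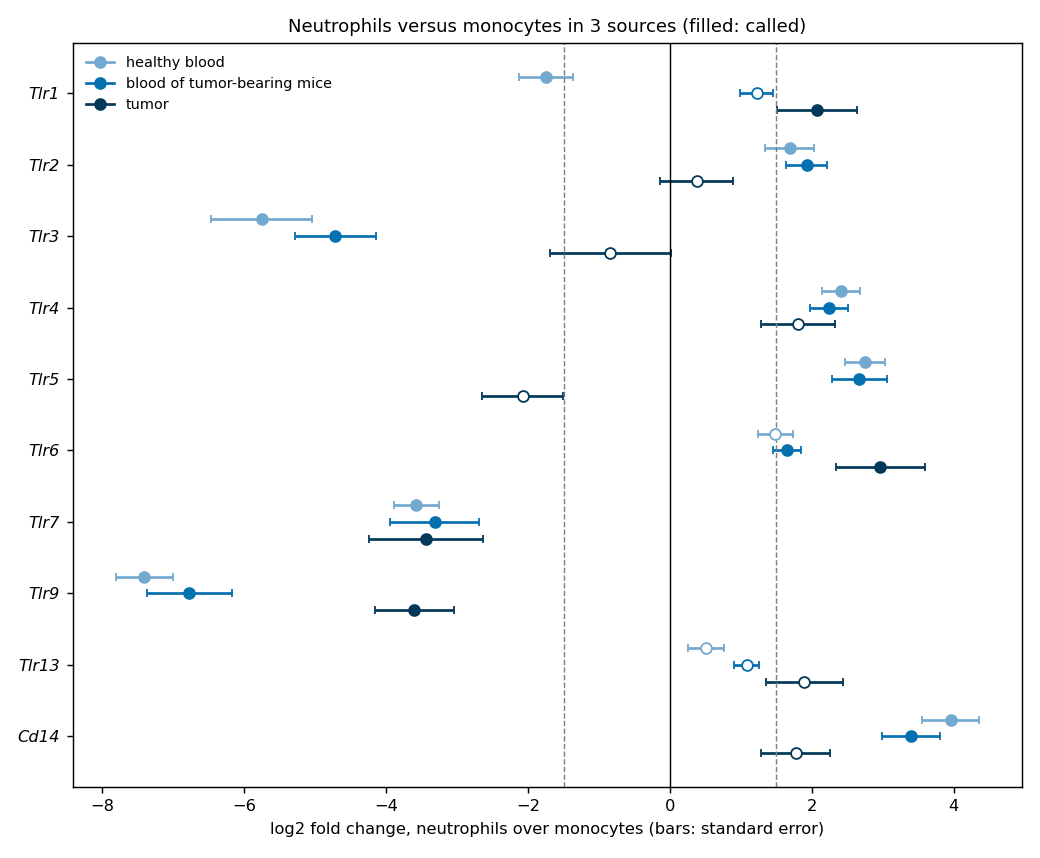
Log2 fold change of neutrophils over monocytes (x axis, bars show the standard error) in healthy blood, blood of tumor-bearing mice and tumors, with filled points for called genes and dashed lines at 1.5 and -1.5. Tlr7 and Tlr9 lie on the monocyte side in all 3 sources, and Tlr5 lies at 2.75 and 2.67 in blood and at -2.07 in tumors.

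In epithelial cells, 4 of the 9 tested members were lower in tumors than in healthy colon, against 7.88% of all genes, and none was higher, against 7.52%. Tlr5 measured 0.202, 0.0520, 0.0650 and 0.0699 RPKM in tumor epithelial cells and 0.615, 1.14, 1.17 and 0.135 RPKM in healthy ones, a log2 fold change of -3.29 (SE 0.55, edgeR adjusted p = 0.00174). Tlr1 measured 0.0479, 0.0132, 0.295 and 0.321 RPKM against 1.31, 4.94, 3.01 and 0.453 RPKM, without overlap and with a log2 fold change of -4.32 (SE 0.73, edgeR adjusted p = 0.00183). Healthy replicate 4, in which mitochondrial genes took 83.9% of the counts, was the lowest healthy library for both.

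Tlr6 followed at 0.00168 to 0.0759 RPKM in tumor and 0.0895 to 0.675 RPKM in healthy epithelial cells, a log2 fold change of -3.85 (SE 0.79, edgeR adjusted p = 0.0057). Tlr3 measured 1.12, 1.01, 1.18 and 1.17 RPKM in tumor and 3.21, 6.10, 3.86 and 0.498 RPKM in healthy cells, so that healthy replicate 4 lay below the tumor libraries on the RPKM scale. On the TMM scale of the test, the log2 fold change was -1.97 (SE 0.28, edgeR adjusted p = 6.85e-04). All 4 calls held without any single library. Leukocyte markers were below 1 RPKM in all 8 epithelial libraries, summing to 0.197 to 0.535 RPKM in tumor and 0.378 to 0.543 RPKM in healthy cells. Summed markers of some leukocyte types, like the 4 genes, had higher medians in healthy cells. The 6 neutrophil markers summed to 6.68 to 12.4 RPKM in healthy and 0.921 to 4.40 RPKM in tumor epithelial cells, the 6 plasmacytoid dendritic cell markers to 0.950 to 9.56 and 0.810 to 2.74 RPKM, with Cox6a2 at 0 in both, and the 6 macrophage markers to 0.376 to 3.81 and 0.513 to 1.15 RPKM. The sum of the 6 monocyte markers was instead higher in tumor cells, at 9.01 to 26.0 against 0.444 to 2.04 RPKM. Few genes carried these sums. Below 1 RPKM in every library were 3 neutrophil markers in both groups, and 4 monocyte markers in tumor and 5 in healthy cells. So were 5 plasmacytoid dendritic cell and all 6 macrophage markers in tumor cells, and 4 of each in healthy cells. The part of these cell types in the 4 differences was not tested. Cd14, Tlr2 and Tlr4 differed by -0.85, -0.23 and 0.18, with edgeR adjusted p of 0.191 to 0.858.

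Healthy epithelial cells were also compared with healthy stromal cells. Of the 10 members, 3 were higher in epithelial cells, against 11.5% of all genes, and 2 were higher in stromal cells, against 19.4%. Epithelial cells held more Tlr1 by 6.17 (SE 0.79, edgeR adjusted p = 3.84e-04), more Tlr5 by 3.37 (edgeR adjusted p = 0.00434) and more Tlr6 by 2.82 (edgeR adjusted p = 0.0071). Stromal cells held more Tlr4, at 2.59, 3.32, 1.35 and 5.32 RPKM against 0.560, 0.185, 0.279 and 0.244 RPKM, a log2 fold change of -1.99 (edgeR adjusted p = 0.0364). They also held more Tlr9, at -2.14 (edgeR adjusted p = 0.0438). These calls were lost in 6 and 8 of 15 other settings. Tlr3 was the most abundant of the 9 Toll-like receptors in both, at 3.42 ± 2.31 RPKM in epithelial and 5.57 ± 1.70 RPKM in stromal cells, and differed by -0.03 on the TMM scale (edgeR adjusted p = 0.961).

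In stromal cells, 3 of the 10 members were higher in tumors than in healthy colon, against 3.39% of all genes, and none was lower, against 5.01%. Cd14 measured 8.22, 3.95, 112 and 72.1 RPKM in tumor replicates 1 to 4 and 1.51, 0.456, 1.31 and 4.11 RPKM in healthy cells, Tlr13 0.455, 0.334, 3.84 and 4.54 RPKM against 0.237, 0.0269, 0.0560 and 0.285 RPKM. The high values were those of replicates 3 and 4, which carry the leukocyte markers. The log2 fold changes were 4.99 for Cd14 (SE 1.15, edgeR adjusted p = 0.0306), 4.21 for Tlr13 (SE 1.07, edgeR adjusted p = 0.0411) and 3.53 for Tlr7 (SE 0.90, edgeR adjusted p = 0.0413).

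The calls depended on which tumor stromal libraries entered. With replicates 3 and 4 alone, 6 members were higher, namely Cd14 at 5.92, Tlr13 at 5.08, Tlr1 at 4.85, Tlr7 at 4.22, Tlr6 at 4.20 and Tlr2 at 2.68. With replicates 1 and 2 alone, none was higher and 3 were lower, Tlr3 at -2.28 (edgeR adjusted p = 0.00972), Tlr4 at -2.01 (edgeR adjusted p = 0.0448) and Tlr9 at -2.18 (edgeR adjusted p = 0.0498). The 6 neutrophil markers summed to 40.9, 8.46, 1508 and 511 RPKM in tumor replicates 1 to 4 and to 6.23 to 43.2 RPKM in healthy stromal cells, with none at 0 in every library. The 6 monocyte markers summed to 12.96 to 21.8 RPKM in tumor and 39.99 to 176 RPKM in healthy stromal cells, where 2 to 4 of the 6 reached 1 RPKM. The highest sum was in healthy replicate 4, with fibroblast markers at 2010 RPKM. The 3 leukocyte markers summed to 0.568 to 3.27 RPKM in healthy and 1.52 to 38.6 RPKM in tumor stromal cells. The 5 endothelial markers summed to 4.49 and 3.74 RPKM in tumor replicates 1 and 2. The call for each of the 3 genes was lost without tumor replicate 3 or 4 and without healthy replicate 1, 2 or 3.

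**Figure D4:**
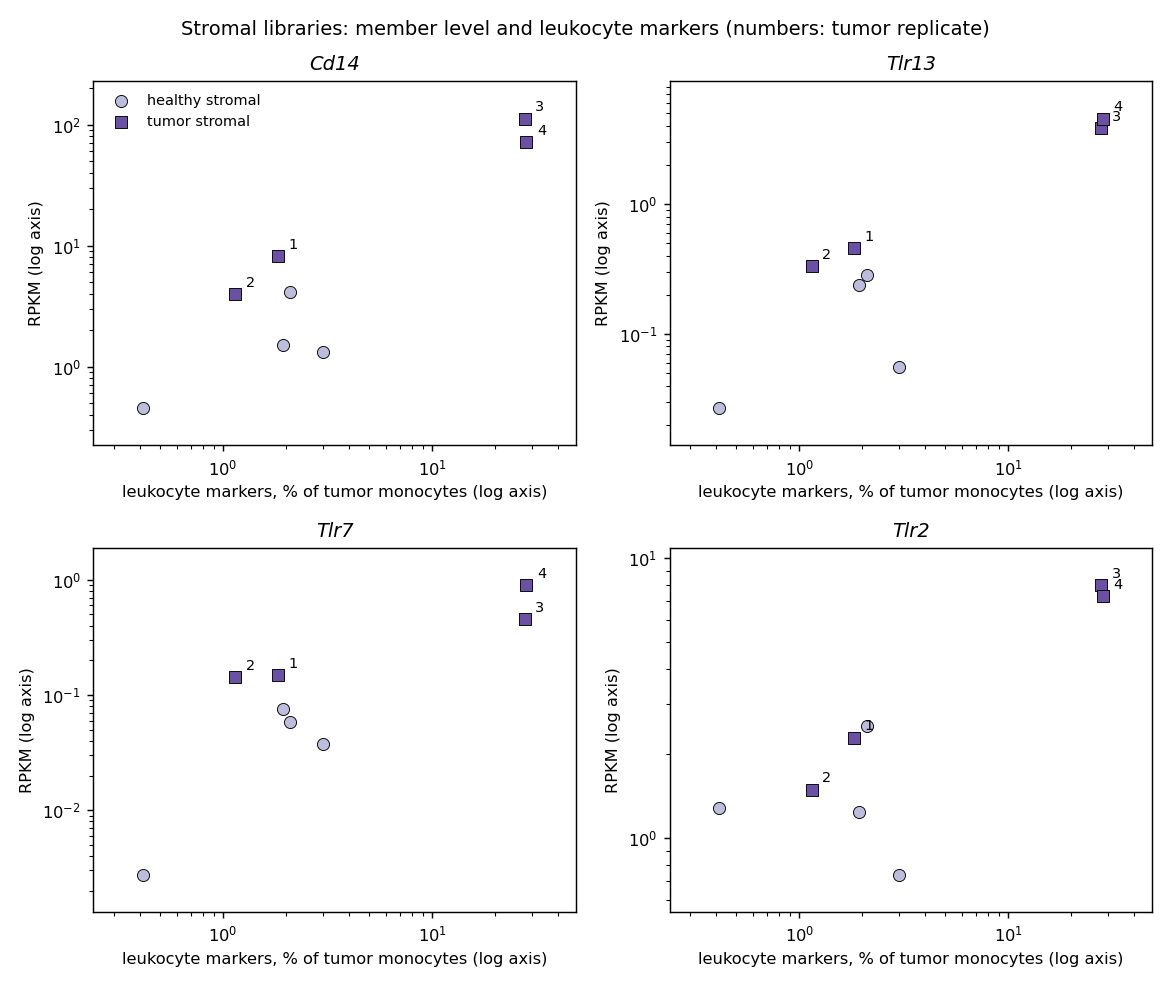
RPKM of Cd14, Tlr13, Tlr7 and Tlr2 (y axes, log) against the level of leukocyte markers as a percentage of tumor monocytes (x axis, log) in the 4 healthy and 4 tumor stromal libraries, with tumor replicates numbered. Tumor replicates 3 and 4, with leukocyte markers at 27.7% and 28.3%, hold the highest level of each gene.

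Between tumor epithelial and tumor stromal cells edgeR called no member, where it called 0.0294% of all genes (5 genes, and 0 to 840 without 1 library), although 6 members had an unadjusted p under 0.05. The differences were -4.71 for Tlr13 (edgeR adjusted p = 0.0616), -3.15 for Tlr7 (edgeR adjusted p = 0.0731) and -4.65 for Cd14 (edgeR adjusted p = 0.0761). DESeq2 called 6 members as lower in epithelial cells and limma-voom 0. Without stromal replicates 1 and 2 edgeR called 8, and without replicates 3 and 4 it called 0.

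**Figure D5:**
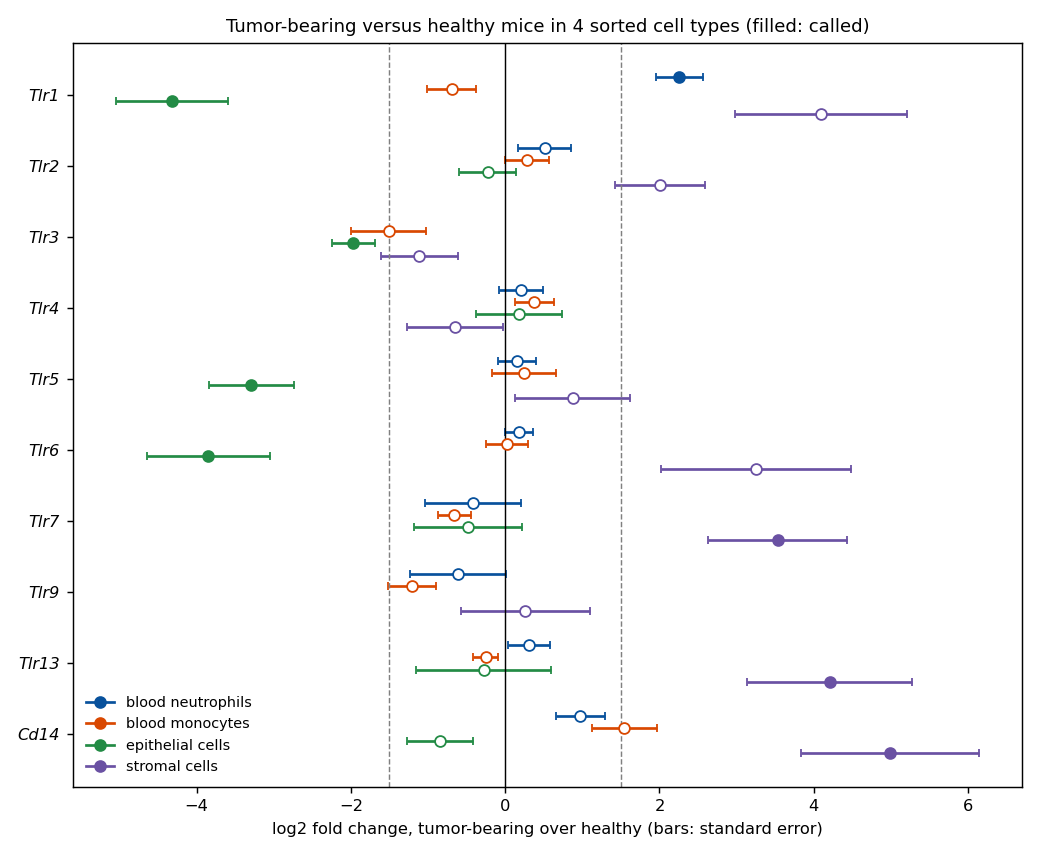
Log2 fold change of tumor-bearing over healthy mice (x axis, bars show the standard error) in blood neutrophils, blood monocytes, colon epithelial cells and colon stromal cells, with filled points for called genes and dashed lines at 1.5 and -1.5. Tlr1 lies at 2.26 in blood neutrophils and -4.32 in epithelial cells, and Cd14, Tlr13 and Tlr7 are the called stromal genes.

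A list of 37 further genes of Toll-like receptor signaling was followed in the same comparisons. In tumor over blood neutrophils 7 of the 32 tested genes rose, against 11.9% of all genes, and 0 fell, against 4.41%. These were Ikbke (6.12) and Tbk1 (2.22), kinases that act toward interferon genes, Irak2 (3.89), a kinase downstream of Myd88, Pik3ap1 (3.19), an adaptor to PI3 kinase, Hsp90b1 (3.61), a chaperone that folds Toll-like receptors, and the restraining genes Tnfaip3 (6.17) and Irak3 (2.45), with log2 fold changes in parentheses. In tumor over blood monocytes, where 7.76% of all genes rose and 3.89% fell, 5 of 35 rose, Tnfaip3 (4.14), Irak2 (3.14), Cd36 (3.01), Pik3ap1 (1.95) and Hsp90b1 (1.60), and 3 fell, Cd180 (-2.19), Tab1 (-2.11) and Slc15a4 (-1.97). Tnfaip3, Irak2, Pik3ap1 and Hsp90b1 therefore rose in both cell types. The interaction was called for Ikbke (5.04) and Sigirr (7.25) among 35 tested, against 3.95% of all genes. Epithelial markers stood at 4.76% to 76.8% of their tumor epithelial level in tumor neutrophils and at 0.0523% to 0.109% in blood neutrophils. In tumor monocytes they stood at 0.902% to 16.6%. The part of epithelial RNA in the pathway differences was not tested. The central adaptor Myd88 differed by -0.43 in neutrophils and 0.20 in monocytes (edgeR adjusted p = 0.582 and 0.612), and Ly96, the partner of Tlr4, by 0.17 in monocytes (edgeR adjusted p = 0.838).

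The same list was compared between tumor-bearing and healthy mice. In blood neutrophils 0 of 33 tested genes rose, against 1.79% of all genes, and 3 fell, against 2.22%, the transcription factors Irf7 (-3.41) and Irf5 (-1.72) and the ubiquitin ligase Peli1 (-1.501), and in blood monocytes 0 of 35 passed, against 0.209%. In epithelial cells, Pik3ap1 (2.95) and Lbp (2.94), which carries lipopolysaccharide to Cd14, rose and Irf7 (-2.34), Sigirr (-1.99) and Myd88 (-1.73) fell among 31 tested, against 7.52% of all genes higher and 7.88% lower. In stromal cells Pik3ap1 (3.48) rose among 33, against 3.39% of all genes. Neutrophils against monocytes gave 2 higher and 9 lower of 35 in healthy blood, where 16.7% and 20.4% of all genes were. In blood of tumor-bearing mice they gave 1 higher and 11 lower of 35, against 15.1% and 23%, and in tumors 3 higher and 4 lower of 34, against 4.65% and 2.8%. The adaptor Ticam1, used by Tlr3 and Tlr4, was lower in neutrophils in all 3 sources, at -2.64, -2.18 and -2.91, with edgeR adjusted p = 3.02e-04, 0.00182 and 0.00837. Healthy epithelial against stromal cells gave 1 higher and 6 lower of 34, against 11.5% and 19.4%, and tumor epithelial against tumor stromal cells gave 0 of 34, against 0.0294%.

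Likeness was measured as Pearson's r over the 10 group means of log2(mean RPKM + 0.1) among 13900 genes with a symbol and at least 1 RPKM in a group. Among the members themselves, Tlr2 and Cd14 were the most alike (r = 0.954), followed by Tlr6 and Tlr13 (r = 0.944), Tlr2 and Tlr4 (r = 0.887) and Tlr7 and Tlr9 (r = 0.867), and Tlr3 and Tlr6 were the least alike (r = -0.767). In the whole table, the gene most like Tlr13 was Lrrc25 (r = 0.998), with Tyrobp at 0.995 and Alox5ap at 0.993. Cd14 was most like Trem1 (r = 0.985) and Clec4e (r = 0.983), both receptors of activated myeloid cells. Tlr9 was most like Ms4a6c (r = 0.993), Tlr7 like Lce1m (r = 0.991), Tlr6 like Ccl6 (r = 0.983), Tlr4 like Zfand3 (r = 0.979), Tlr2 like Card19 (r = 0.978) and Tlr3 like Slc22a5 (r = 0.978). The best match was weaker for Tlr5, at 0.912 with Gm43775, and for Tlr1, at 0.901 with Ugt1a10. The 10 points share the scaling of each library, so these values describe shape over groups.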

How the data were processed

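RNA of sorted cells was amplified with the Ovation V2 kit, prepared with TruSeq Nano and sequenced on an Illumina HiSeq. Per the labels and the paper's methods, the authors demultiplexed the reads with bcl2fastq, mapped them with Bowtie2 to mouse genome mm10 and counted them per gene with HTSstation. The annotation release, strand setting and treatment of reads mapping to several places are not given in the sources used here. The deposited expected counts, without normalization, cover 45706 genes in 40 libraries, and of the nonzero values 99.6% were not whole within 1e-06, so they were rounded, which changed a total by at most 1105. The RPKM values deposited by the authors are the same counts scaled by gene and by library. That library scale, relative to the total on genes, ran from 0.666 to 1.61. Of the genes, 45143 were matched to a symbol of GENCODE M21. Depth was 10717873 to 38002939 counts per library. Among 60 pairs of replicates no pair agreed within counting error.

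In R 4.3.3, edgeR 4.0.16 (filterByExpr, TMM normalization, robust quasi-likelihood test) was run on 4 libraries against 4 for every comparison. The interaction used 16 libraries. Calls required a Benjamini-Hochberg adjusted p under 0.05 over all genes tested and a change of more than 1.5 on the log2 scale, up or down. The scripts were tested on simulated counts. The paper names limma-voom, which was run as an alternative (limma 3.58.1), as were DESeq2 1.42.0, RLE size factors, no count filter, no fold threshold, a fit of all 40 libraries, the replicate number as a block, leaving out each library, and leaving out tumor stromal replicates 1 and 2. Leaving out stromal replicates 3 and 4 was added after seeing the data. The labels give the number 3 to a pair of tumor stromal libraries, the latter of which is called replicate 4. Within each group the titles name a different animal or pool of animals for each library, and p-values measure the spread between these libraries. Between blood monocytes of tumor-bearing and healthy mice, same-numbered libraries had correlations of deviations of 0.113 to 0.267 in all 4 pairs. These are libraries of different mice. In every other comparison some pairs correlated less, though single pairs reached up to 0.266 in stromal cells. By their titles, 3 animals gave both a tumor neutrophil and a tumor monocyte library, and the animal was used as a block there as an alternative. The other groups compared shared at most 2 whole titles, but pools add shared animals. In blood of tumor-bearing mice, monocyte replicate 3 came from T8 and neutrophil replicate 3 from T8 and T10. In healthy blood, 2 monocyte libraries pool the 4 animals of the neutrophil libraries. No animal block was fitted for these comparisons, so shared animals were not accounted for in them.

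Named genes were the 10 members, the called genes of a list of 37 pathway genes with a known role, adaptors and partners given for their role, and for each member the genes with the highest correlation over group means. Members and lists were chosen with earlier results of these data known, so their selection is not independent of them.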

Additional observations from a re-analysis of the deposited data

Results flagged for a closer look

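Among 100 sets of 4 libraries (10 genes in 10 groups), 5 held a library farther from the others than Dixon's criterion allows, about what chance gives at 1 in 20. Tlr13 was high in healthy blood neutrophil replicate 4 (51.7 RPKM), Tlr9 was high in tumor monocyte replicate 2 (10.9 RPKM), Tlr5 was high in tumor epithelial replicate 1 (0.202 RPKM) and low in tumor stromal replicate 3 (0.0934 RPKM), and Tlr3 was high in blood neutrophil replicate 4 of tumor-bearing mice (0.0183 RPKM), a value resting on a few counts.

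By edgeR's interaction test of source and cell type, 3 genes were called. The log2 differences, neutrophils minus monocytes, were -4.89 for Tlr5 (edgeR adjusted p = 0.00182), 3.77 for Tlr3 (edgeR adjusted p = 0.0495) and 3.03 for Tlr9 (edgeR adjusted p = 0.0325). The Tlr5 call held in all 23 other settings, whereas that of Tlr3 was lost in 18 and that of Tlr9 in 12.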

How the results depend on the processing

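Of the 44 member calls, 26 held in every setting and none reversed. Over 318 values from other tools, scalings or fits, 291 kept the call and 27 lost it, and over 376 values without 1 library 290 kept it and 86 lost it. Counts of members called moved by more than 1.5-fold as follows. DESeq2 called 1 member in blood monocytes, 6 in stromal cells, 8 between tumor neutrophils and monocytes and 6 between tumor epithelial and stromal cells. The fit of all 40 libraries called 0 in blood neutrophils, 6 in stromal cells and 6 between tumor epithelial and stromal cells. Limma-voom called 0 in stromal cells and 1 in the interaction. The replicate block called 2 in tumor against blood neutrophils, 1 in stromal cells and 1 in the interaction, and in blood monocytes it called 0, as without it. In the comparisons other than that of blood monocytes, 0 to 3 of 8 libraries correlated best with their own number. Without tumor stromal replicates 1 and 2, 6 members were called in stromal cells and 8 between tumor epithelial and stromal cells, and without replicates 3 and 4 the stromal calls turned to 3 lower. The cause was not tested.

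Without 1 library, members called ranged from 1 to 6 in tumor against blood neutrophils (1 without blood replicate 2, 6 without tumor replicate 1), 4 to 4 in tumor against blood monocytes, 1 to 1 in blood neutrophils, 0 to 0 in blood monocytes, 4 to 4 in epithelial cells, 0 to 3 in stromal cells, 7 to 9 in healthy blood and 8 to 8 in blood of tumor-bearing mice between the myeloid types, 1 to 8 between tumor neutrophils and monocytes (1 without monocyte replicate 1, 2 or 3, and 8 without neutrophil replicate 1), 3 to 5 between healthy epithelial and stromal cells, 0 to 4 between tumor epithelial and stromal cells, and 1 to 3 in the interaction. The group with the highest mean was the same for 8 of 10 genes after TMM rescaling.

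Over all genes, the fit of all 40 libraries called 5995 against 2229 in tumor over blood neutrophils, 2803 against 1781 in monocytes, 4176 against 1117 between tumor neutrophils and monocytes and 1994 against 690 in the interaction, and DESeq2 called 868 against 536 in blood neutrophils, 263 against 32 in blood monocytes, 2707 against 1602 in stromal cells, 2384 against 1117 between tumor neutrophils and monocytes and 1916 against 690 in the interaction. The block called 1407, 353, 14, 621 and 397 in tumor over blood neutrophils, blood neutrophils, blood monocytes, tumor neutrophils against monocytes and the interaction, and limma-voom 17 in blood monocytes. Tumor epithelial against stromal cells gave 5 genes, 1246 with DESeq2, 1739 with all 40 libraries and 4471 without stromal replicates 1 and 2, and stromal cells gave 4143 without replicates 3 and 4. Values under a few counts, such as those of Tlr3 in blood neutrophils, limit what depth can show.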
